A study of Homo sapiens with 15 samples.

Results

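The genes described here are 8 core members of the BCL2 family, chosen as the rows of the count table whose Ensembl identifier maps to BCL2, BCL2L1, BCL2L2, MCL1, BCL2A1, BAX, BAK1 or BOK. All 8 were found among 60670 genes, and all 8 passed the filter on low counts that left 18563 genes for testing. 5 of them encode survival proteins and 3 encode pore-forming effectors. RNA was sequenced from HT-1080, a human fibrosarcoma cell line, in 5 groups of 3 libraries. The first group held cycling cells given the vehicle dimethyl sulfoxide (DMSO), labelled 6 h. The other groups held cells that had made a dominant negative form of the telomere protein TRF2 for 6 days, which uncaps telomeres and brings on senescence, and then received DMSO for 6 h, 1 uM of the kinase inhibitor GNF-7 for 6 h, DMSO for 24 h, or 1 uM GNF-7 for 24 h. All 15 libraries come from this cell line, grown in low oxygen and in serum free of tetracycline. Cycling cells at 24 h and cycling cells given GNF-7 were not analysed here, so a response to GNF-7 is seen only in senescent cells. The promoter that drives the TRF2 mutant, and whether the senescent cells are a single clone, are not given in the sources used here. The labels call the libraries biological replicates without saying how the cultures were kept apart, so p-values measure the spread between these libraries.

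Proteins of the BCL2 family decide whether the mitochondrial outer membrane stays closed. BAX and BAK1 can assemble into pores that let cytochrome c out of mitochondria, after which the apoptosome activates caspases, and BOK can form pores with less restraint by the survival proteins. The survival proteins BCL2, BCL-xL (gene BCL2L1), BCL-w (gene BCL2L2), MCL1 and BFL1 (gene BCL2A1) hold BAX and BAK1 and capture the BH3-only proteins that would set them free, and senescent cells are known for leaning on survival proteins such as BCL-xL, which is why inhibitors of this family are used to kill them.

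The promoters of the members were read for motifs known for stress and p53 responses. A pair of matches is shown because BCL2A1 had the largest rise of the 8 with GNF-7 and BAK1 the largest rise of the 8 in senescent cells. Each line gives 30 bases of RefSeq sequence on GRCh38.p14, read 5′ to 3′ on the strand of the gene, with the matched motif in capitals.
BCL2A1: atattataaagTGATGCAAacagaaattcc
BAK1: aaagtgggcgGGACATGCTCctgggcctgg
The BCL2A1 window is chr15:79971241-79971270 on the minus strand, with the match 63 to 56 bases upstream of the RefSeq start at 79971196. The same bases lie inside the first, untranslated part of a longer GENCODE 29 transcript (79971120 to 79971446), so they are promoter for one start and transcribed from the other. Its capitals match TGATGNAA, the C/EBP-ATF composite element through which ATF4 and C/EBP partners act in the integrated stress response. The BAK1 window is chr6:33580330-33580359 on the minus strand, with the match 73 to 64 bases upstream of 33580276. Its capitals match RRRCWWGYYY (R is A or G, W is A or T, Y is C or T), the decamer motif of p53. That decamer is only a part of a full p53 element.

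Across 35114 promoters read over the 250 bases upstream of the start on both strands, TGATGNAA was found in 3.14%, the AP-1 motif TGANTCA in 6.57%, the E-box CACGTG in 6.35% and the p53 decamer motif in 5.57%. BAX held 4 E-boxes, and 3 or more E-boxes were found in 28 promoters (0.0797%). TGATGNAA and TGANTCA begin alike but cannot match from the same start, since the fifth letters differ. BCL2, BCL2L1 and BOK held none of the 4 motifs in the windows of the table, which has no entry for BCL2L2 or MCL1. A match describes letters and is neither a binding site nor a cause.

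Library totals ran from 25991007 to 32323393 counts. TERF2, the gene of TRF2, stood at 58.2 ± 3.64 CPM (counts scaled to library size with TMM factors; SD, n = 3) in cycling cells and 287 ± 8.16 in senescent cells in vehicle at 6 h, the cell cycle inhibitor CDKN1A at 186 and 501, and the proliferation marker MKI67 at 508 and 149. TERF2 was 132 ± 5.37 CPM (SD, n = 3) with GNF-7 at 24 h and 220 ± 7.25 in vehicle at 24 h. On the log2 scale it was lower with GNF-7 by -0.37 at 6 h (edgeR adjusted p = 7.38e-12) and by -0.73 at 24 h (3.63e-24). In vehicle it was lower by -0.39 from 6 h to 24 h (edgeR adjusted p = 1.91e-11). The level of TERF2 thus differed in each of these comparisons, and its part in the results for the 8 genes was not tested. Of 8 mesenchymal markers 6 were at 5 CPM or more in every library and THY1 was at 0 in all of them, and 4 of 5 haematopoietic markers and 4 of 5 epithelial markers stayed under 1 CPM in every library. The summed level of the epithelial list was 0.271 to 0.705 CPM in vehicle and 2.26 to 3.34 with GNF-7 at 24 h, and that of the mesenchymal list 10240 to 11410 and 6288 to 6623. The endothelial list, with 3 of 5 markers under 1 CPM in every library, summed to 1.34 to 1.59 CPM in vehicle and 2.01 to 3.14 with GNF-7 at 24 h. The part of these lists in the GNF-7 results was not tested. DDIT3, a gene of the integrated stress response, was at 23.4 CPM in senescent vehicle at both times and at 154 CPM with GNF-7 at 6 h and 190 CPM at 24 h. The share of counts from mitochondrially encoded genes was 4.32% in cycling cells, 11.7% in senescent vehicle and 14.1% in GNF-7 at 6 h, and 16.9% in vehicle and 23.3% in GNF-7 at 24 h. It moved with every comparison below. No call for any of the 8 genes changed when the mitochondrial genes were left out of the scaling, which concerns the scaling only. With total counts, which include those genes, the BAX calls ended in senescence (edgeR adjusted p = 0.887) and from 6 h to 24 h in vehicle (0.821). MCL1 was then called over that time (edgeR adjusted p = 2.74e-05). The part of the mitochondrial share in the results was not tested.

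Between senescent and cycling cells, both in vehicle at 6 h, all 8 genes were called at an adjusted p under 0.05, where 70.0% of all genes tested were called either way. BAK1, BCL2L2 and BCL2L1 were higher (3 of 8, beside 35.6% of all genes) and BCL2A1, BCL2, MCL1, BOK and BAX were lower (5 of 8, beside 34.4%). The replicates of the groups did not overlap for any of the 8, as for 71.5% of all genes. The median log2 fold change of the 8 was -0.38, beside 0.06 for all genes tested. In bulk RNA, fewer cells that express a gene and less of its RNA per cell cannot be told apart.

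GNF-7 at 6 h changed 3 of the 8 against its vehicle, with BCL2A1 and MCL1 higher and BOK lower, where 39.3% of all genes were called (17.9% higher and 21.4% lower). The replicates did not overlap for 5 of the 8, beside 47.7% of all genes. At 24 h it changed 2 of the 8, with BCL2A1 higher and BOK lower, where 58.9% of all genes were called (29.3% higher and 29.7% lower). The replicates did not overlap for 4 of the 8, beside 63.2%. The median log2 fold change of the 8 was 0.05 at 6 h and 0.04 at 24 h, beside 0.01 and 0.04 for all genes. The difference between the responses at 24 h and 6 h (the interaction) was called above 0 for BCL2A1 and below 0 for MCL1, where 30.8% of all genes were called (12.8% above and 18.0% below). From 6 h to 24 h in vehicle alone, BCL2L1 and BAX rose and BCL2A1 and BAK1 fell, where 18.5% of all genes were called (9.26% higher and 9.29% lower). The replicates did not overlap for 5 of the 8, beside 32.9%. The senescent vehicle libraries at 6 h enter 4 of these 5 comparisons, so each is given by its own values and no overlap between them is read.

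**Figure D1:**
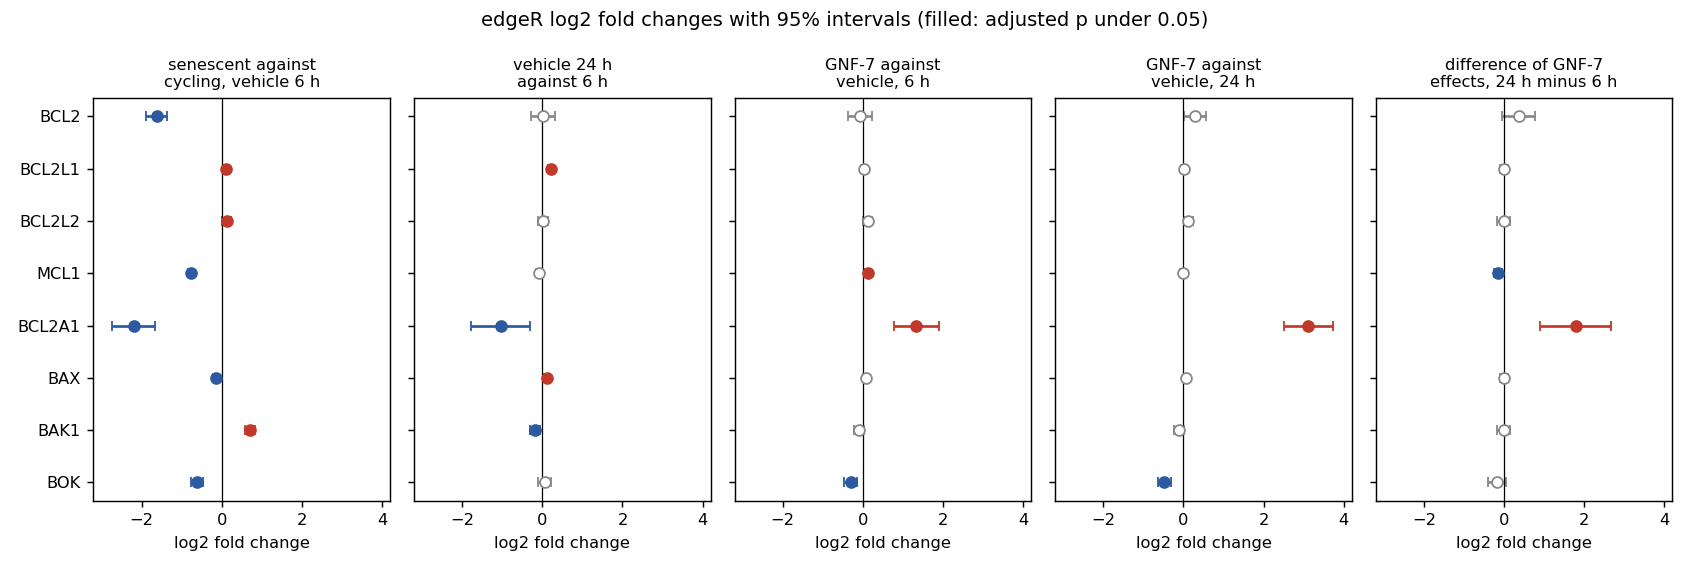
Log2 fold change (x axis) of each of the 8 genes (rows) in the 5 comparisons (panels), from edgeR over all 15 libraries. Bars are 95% intervals and filled points are called at an adjusted p under 0.05, red higher and blue lower. BCL2A1 lies at -2.19 in senescent against cycling cells and at 3.11 with GNF-7 at 24 h, farther from 0 than the other 7 genes in both panels.

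MCL1 (ENSG00000143384, chr1:150574551-150579738) encodes a short-lived survival protein that holds BAK1 and BIM and is broken down by the proteasome. It stood at 439, 461 and 468 CPM in the 3 libraries of cycling cells and at 269, 267 and 269 in senescent cells in vehicle at 6 h. With GNF-7 at 6 h it stood at 303, 283 and 295 CPM. The cycling libraries lay far above all 12 senescent libraries, and the GNF-7 libraries at 6 h lay just above their vehicle. At 24 h MCL1 stood at 256, 250 and 250 CPM in vehicle and at 258, 241 and 245 with GNF-7, and those groups overlapped.

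In senescent cells MCL1 was 0.589 times the cycling level, which is -0.76 on the log2 scale (SE 0.036, edgeR adjusted p = 4.11e-28). GNF-7 at 6 h raised it by 0.13 on the log2 scale (SE 0.0361, edgeR adjusted p = 0.00275). At 24 h the log2 fold change was -0.02, with a 95% interval from -0.10 to 0.05. The responses differed by -0.15 (SE 0.0513, edgeR adjusted p = 0.0164) between 24 h and 6 h. That difference missed the threshold without GNF-7 replicate 1 of 6 h (adjusted p = 0.0566) and without GNF-7 replicate 2 of 24 h (adjusted p = 0.0568) in edgeR, and with a filter at 5 CPM (-0.11, adjusted p = 0.0617). With that filter the change at 24 h was 0.08 (adjusted p = 0.0363), on the other side of 0. Vehicle alone gave -0.09 from 6 h to 24 h (edgeR adjusted p = 0.0759), and -0.20 with total counts (adjusted p = 2.74e-05). Protein turnover of MCL1 and its splice forms are not seen in gene counts.

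BCL2L1 (ENSG00000171552, chr20:31664452-31723989) encodes BCL-xL and, by splicing, a short form that promotes death, and gene counts add the forms together. Its levels were 183, 186 and 180 CPM in cycling cells and 202, 196 and 196 CPM in senescent vehicle at 6 h. It stood at 202, 193 and 207 CPM with GNF-7 at 6 h, at 229, 237 and 221 CPM in vehicle at 24 h and at 230, 230 and 235 CPM with GNF-7 at 24 h. Every senescent library was above every cycling one, the libraries at 24 h were above those at 6 h, and GNF-7 overlapped its vehicle at both times.

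BCL2L1 rose by 0.11 on the log2 scale in senescent cells (SE 0.0374, edgeR adjusted p = 0.00665), which put it at percentile 52.2 of the fold changes of all genes tested. Without cycling replicate 3 that change was 0.09 (edgeR adjusted p = 0.0511). From 6 h to 24 h in vehicle BCL2L1 rose by 0.21 (SE 0.0372, edgeR adjusted p = 1.21e-05). For GNF-7 the 95% intervals of the log2 fold change ran from -0.05 to 0.10 at 6 h and from -0.06 to 0.09 at 24 h. An antisense gene, ABALON, shares exon sequence with BCL2L1 and held 2 to 32 counts a library against 4553 to 7194 for BCL2L1.

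BCL2L2 (ENSG00000129473, chr14:23298790-23311759) encodes BCL-w, a survival protein of the same fold. Cycling cells held 35.4, 36.5 and 35.5 CPM, and senescent cells in vehicle at 6 h held 37.2, 39.3 and 40.8. GNF-7 at 6 h gave 41.8, 44.3 and 41.3 CPM. All senescent libraries lay above all cycling libraries, and GNF-7 at 6 h lay above its vehicle. At 24 h vehicle libraries were at 37.7, 42.7 and 38.6 CPM and GNF-7 libraries at 42.3, 43.8 and 42.8, and replicate 2 of vehicle fell among the treated libraries.

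The senescent rise of BCL2L2 was 0.13 on the log2 scale (SE 0.0583, edgeR adjusted p = 0.0475), and leaving out single libraries ended the call in 5 of 6 fits, with adjusted p up to 0.214 in edgeR, as did limma voom (adjusted p = 0.0511). The GNF-7 log2 fold change was 0.12 at both times, with edgeR adjusted p = 0.0961 at 6 h and 0.0756 at 24 h. Without vehicle replicate 2 of 24 h it was 0.17 at 24 h (edgeR adjusted p = 0.0203), and with a filter at 5 CPM it was 0.17 at 6 h (adjusted p = 0.0108) and 0.22 at 24 h (adjusted p = 0.000874). Exons of BCL2L2 overlap those of the read-through gene BCL2L2-PABPN1 on the same strand and of PPP1R3E on the other. BCL2L2-PABPN1 held 25 to 32 counts in cycling libraries and 78 to 92 in senescent vehicle at 6 h. The part of this read-through gene in the senescent value of BCL2L2 was not tested. PPP1R3E stood at 326 to 418 counts in vehicle and 753 to 839 with GNF-7 at 24 h, and since the use of strand in counting is not given in the sources used here, its part in the value of BCL2L2 was not tested.

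BCL2 (ENSG00000171791, chr18:63123346-63320128) is the founding survival gene of the family. It stood at 14.3, 11.9 and 14.7 CPM in cycling cells and at 4.63, 4.76 and 3.85 CPM in senescent cells in vehicle at 6 h. It held 4.15, 4.59 and 3.88 CPM with GNF-7 at 6 h, 4.27, 4.23 and 4.99 in vehicle at 24 h, and 6.11, 5.65 and 4.71 with GNF-7 at 24 h. The 12 senescent libraries all lay below the 3 cycling ones, and no group of senescent cells stood clear of its control.

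BCL2 fell by 1.63 on the log2 scale in senescent cells, to 0.324 times the cycling level (SE 0.131, edgeR adjusted p = 2.62e-17). With GNF-7 at 6 h the log2 fold change was -0.07, with a 95% interval from -0.36 to 0.22. At 24 h it was 0.29, with an interval from 0.01 to 0.57 (edgeR adjusted p = 0.0712). It passed the threshold at 24 h without vehicle replicate 3 (0.36, adjusted p = 0.0498) or without GNF-7 replicate 3 (0.39, adjusted p = 0.0301) in edgeR.

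BCL2A1 (ENSG00000140379, chr15:79960889-79971446) encodes BFL1, a survival protein best known from blood cells and as a target of NF-kB. It was read from few counts, with 73, 85 and 95 in cycling libraries and 21, 21 and 17 in senescent vehicle libraries at 6 h. Treatment with GNF-7 for 6 h gave 42, 49 and 59 counts. At 24 h there were 15, 6 and 6 counts in vehicle and 88, 89 and 73 with GNF-7. Scaled to library size these were 2.99 ± 0.0983, 0.649 ± 0.0541, 1.64 ± 0.26, 0.307 ± 0.148 and 2.75 ± 0.284 CPM in that order of groups (SD, n = 3). Each GNF-7 library stood above every vehicle library of its time, and the GNF-7 libraries at 24 h (2.42 to 2.94 CPM) reached into the cycling range (2.92 to 3.10).

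BCL2A1 was lower in senescent cells by -2.19 on the log2 scale (SE 0.268, edgeR adjusted p = 8.71e-11), to 0.219 times the cycling level. GNF-7 at 6 h raised it 2.51-fold, or by 1.33 on the log2 scale (SE 0.281, edgeR adjusted p = 8.9e-05). At 24 h it was 8.66-fold above vehicle, or 3.11 on the log2 scale (SE 0.307, edgeR adjusted p = 1.15e-13) with a 95% interval from 2.50 to 3.73. The responses differed by 1.78 (SE 0.438, edgeR adjusted p = 9.19e-04). The vehicle libraries of 24 h were themselves lower than those of 6 h by -1.04 (SE 0.37, edgeR adjusted p = 0.0391), a call that ended in 5 of 6 fits that left out a library (-1.54 to -0.82) and under limma voom (adjusted p = 0.0922). The haematopoietic markers PTPRC, CD3E and SPI1 stayed under 1 CPM in all libraries, and the summed level of the 5 markers of that list was 3.23 to 4.57 CPM in cycling cells, 2.08 to 3.00 in senescent vehicle at 6 h, and 2.04 to 2.62 with GNF-7 and 1.94 to 2.48 in vehicle at 24 h. LAPTM5, the marker that holds most of that sum, was also lower in senescent cells (-0.88, edgeR adjusted p = 8.56e-05), and its part in the BCL2A1 result was not tested.

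**Figure D2:**
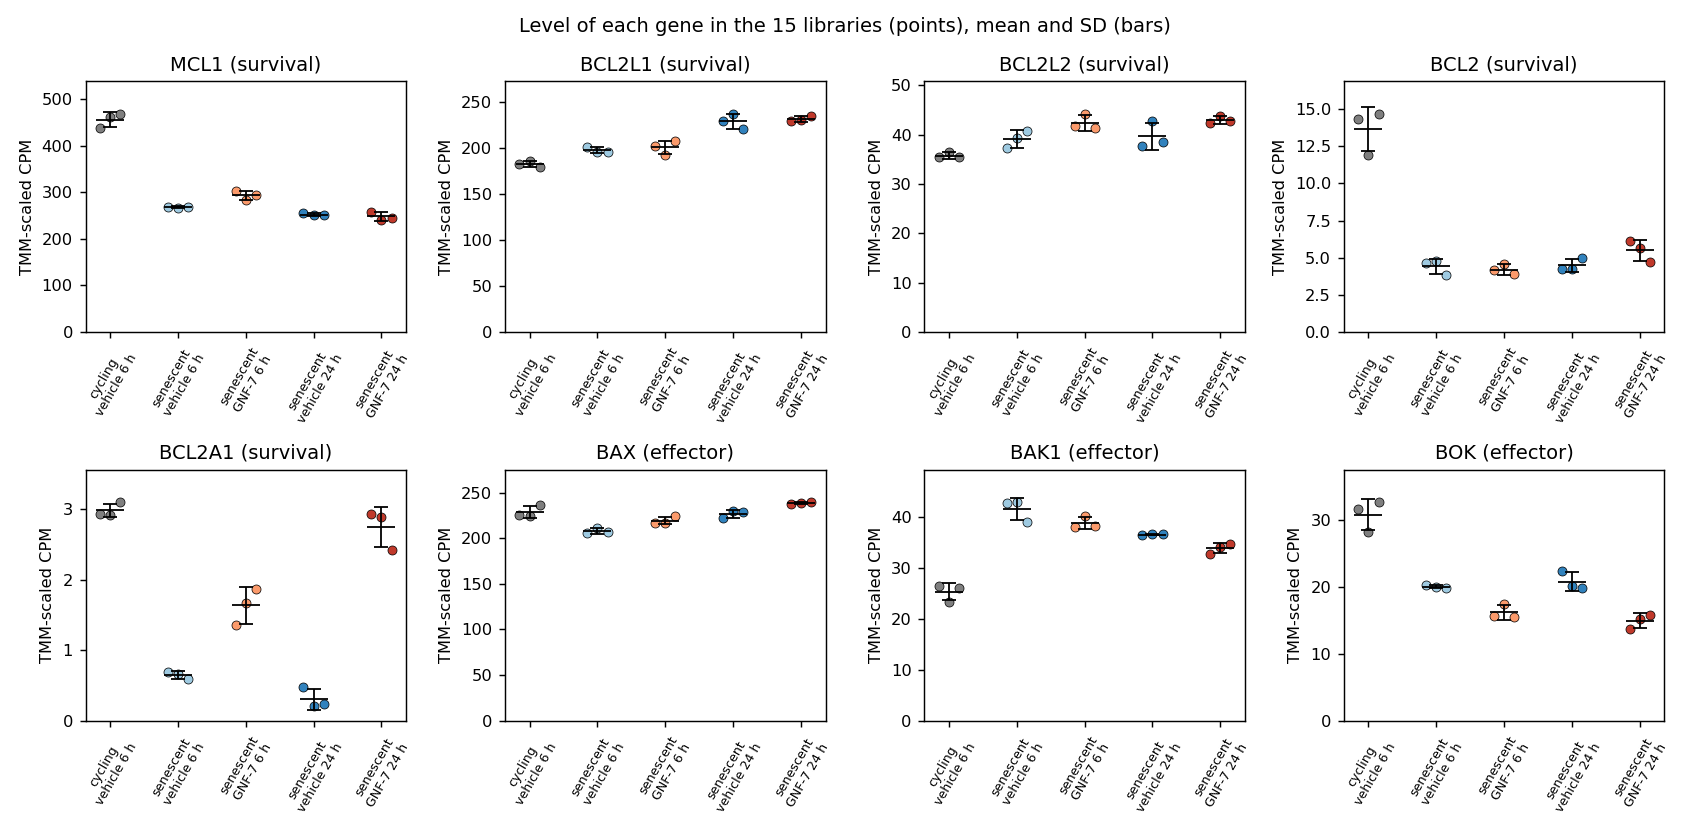
TMM-scaled CPM (y axis, from 0) of each of the 8 genes in the 15 libraries (points), by group (x axis), with the mean and SD of the 3 libraries of a group. BCL2A1 went from 2.99 CPM in cycling cells to 0.649 in senescent vehicle at 6 h and stood at 2.75 with GNF-7 at 24 h, while MCL1 and BCL2 stayed below their cycling libraries in all 12 senescent libraries.

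BAX (ENSG00000087088, chr19:48954815-48961798) encodes the effector that waits in the cytosol and moves to mitochondria. Its libraries read 226, 224 and 236 CPM in cycling cells and 206, 211 and 206 CPM in senescent vehicle at 6 h. They read 217, 217 and 224 CPM with GNF-7 at 6 h, 222, 230 and 229 in vehicle at 24 h, and 238, 239 and 239 with GNF-7 at 24 h. All groups lay within a narrow band, with the senescent vehicle at 6 h lowest and GNF-7 at 24 h highest, above the cycling range.

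BAX was lower in senescent cells by -0.14 on the log2 scale (SE 0.0359, edgeR adjusted p = 0.000539). The direction depended on scaling, at -0.0063 with total counts (adjusted p = 0.887) and 0.01 where only genes of at least 5 CPM were kept (adjusted p = 0.744) in edgeR. The median over all genes here was 0.06 with TMM and 0.19 with total counts, and relative to the median BAX was at -0.20 under both. GNF-7 gave 0.08 at 6 h (edgeR adjusted p = 0.0764) and 0.07 at 24 h (adjusted p = 0.0748), with 95% intervals of 0.01 to 0.15 and 0.0012 to 0.14, and with the filter at 5 CPM it gave 0.13 (adjusted p = 0.000992) and 0.17 (adjusted p = 1.24e-05). BAX was higher at 24 h than at 6 h in vehicle by 0.13 (SE 0.0359, edgeR adjusted p = 0.00792), and with total counts by 0.02 (adjusted p = 0.821).

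BAK1 (ENSG00000030110, chr6:33572547-33580293) encodes the effector that sits in the outer membrane, held by MCL1 and BCL-xL. It stood at 26.6, 23.4 and 26.1 CPM in cycling cells and at 42.8, 42.9 and 39.2 CPM in senescent vehicle at 6 h. At 6 h GNF-7 gave 38.1, 40.3 and 38.4 CPM. At 24 h vehicle gave 36.5, 36.7 and 36.7 CPM and GNF-7 gave 32.8, 34.2 and 34.7. Every senescent library lay above every cycling library, GNF-7 overlapped vehicle at 6 h, and at 24 h it lay below vehicle.

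BAK1 rose 1.64-fold in senescent cells, or by 0.72 on the log2 scale (SE 0.0614, edgeR adjusted p = 3.13e-16). GNF-7 gave -0.10 at 6 h (95% interval -0.22 to 0.02) and -0.11 at 24 h (-0.23 to 0.01), neither of which passed the test (edgeR adjusted p = 0.188 and 0.112). From 6 h to 24 h in vehicle BAK1 fell by 0.19 (SE 0.0592, edgeR adjusted p = 0.0188), a call that ended in 4 of 6 fits that left out a library (-0.23 to -0.16).

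BOK (ENSG00000176720, chr2:241551424-241574138) encodes the effector that survival proteins restrain least. It stood at 31.6, 28.1 and 32.6 CPM in cycling cells and at 20.3, 20.0 and 19.8 CPM in senescent vehicle at 6 h. Treatment for 6 h gave 15.7, 17.4 and 15.4 CPM. At 24 h vehicle gave 22.4, 20.1 and 19.9 CPM and GNF-7 gave 13.8, 15.3 and 15.9. The cycling libraries were highest, and GNF-7 lay below its vehicle in all libraries at both times.

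BOK fell by 0.62 on the log2 scale in senescent cells (SE 0.0755, edgeR adjusted p = 7.86e-11). GNF-7 lowered it further, with log2 values of -0.31 at 6 h (SE 0.0791, edgeR adjusted p = 0.00115) and of -0.48 at 24 h (SE 0.08, edgeR adjusted p = 5.69e-07). The responses at the 2 times differed by -0.17, with a 95% interval from -0.39 to 0.06 (edgeR adjusted p = 0.279). The antisense gene BOK-AS1 shares exon sequence with BOK and held 2 to 23 counts a library against 412 to 999 for BOK.

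Levels can be set between genes only per length, here as CPM per kilobase of the joined exons of each gene. These lengths include exons that overlap other genes, which BCL2L1, BCL2L2, MCL1, BAK1 and BOK have. For MCL1 the other gene is ADAMTSL4-AS1 (0 to 23 counts a library) and for BAK1 it is GGNBP1 (0 to 5). The part of such exons in the order and in the shares below was not tested. In cycling cells MCL1 led at 104 ± 3.52 CPM per kilobase (SD, n = 3), followed by BAX at 88.4, BCL2L1 at 55.2, BAK1 at 11.5, BOK at 11.4, BCL2L2 at 8.54, BCL2A1 at 2.74 and BCL2 at 1.16. The ranges of BAK1 and BOK overlapped, so those neighbours are not ordered. In senescent vehicle at 6 h BAX led at 80.3 ± 1.17, with MCL1 at 61.4 and BCL2L1 at 59.7 next, then BAK1 at 18.8, BCL2L2 at 9.33, BOK at 7.38, BCL2A1 at 0.596 and BCL2 at 0.375. At 24 h BCL2L1 (69.2 in vehicle, 69.9 with GNF-7) stood above MCL1 (57.7 and 56.7). At the bottom in vehicle at 24 h BCL2 at 0.382 and BCL2A1 at 0.282 overlapped. With GNF-7 at 24 h BCL2A1 at 2.52 was clear of BCL2 at 0.467.

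Read as shares of the summed survival level per kilobase, MCL1 made up 60.6% ± 0.911 (SD, n = 3) in the cycling libraries, 46.7% in senescent vehicle at 6 h, 48.1% in GNF-7 at 6 h, 42.1% in vehicle at 24 h and 40.6% ± 1.02 with GNF-7 at 24 h. The share of BCL2L1 was 32.1%, 45.4%, 43.4%, 50.5% and 50.0% in the same order. BCL2A1 never passed 2% of the sum, with 1.60%, 0.454%, 1.08%, 0.206% and 1.80%. Among the effectors BAX held 79.5%, 75.4%, 78.3%, 78.4% and 81.6%, and BOK held 10.2%, 6.93%, 5.51%, 6.86% and 4.88%. The survival sum was 1.55 ± 0.0589 times the effector sum in cycling cells and 1.23 ± 0.0272 in senescent vehicle at 6 h, and between 1.22 and 1.29 in the remaining groups (SD, n = 3). With the longest transcript as length, BAX led in cycling cells too (168 beside 116 for MCL1), and BCL2L1 (75.8) stood above MCL1 (68.3) in senescent vehicle at 6 h, so the order at the top depends on the length used. The order at the bottom does too. With that length BCL2A1 (0.628) and BCL2 (0.592) overlapped in senescent vehicle at 6 h, and in vehicle at 24 h BCL2 (0.603) was clear of BCL2A1 (0.297). With that length the survival sum was 1.05 ± 0.0351 times the effector sum in cycling cells and 0.851 to 0.894 times in the 4 senescent groups (SD, n = 3), so whether it exceeds the effector sum depends on the length too. With that length BOK held 6.05% of the effector sum in cycling cells and 2.86% in senescent cells with GNF-7 at 24 h, and BAX held 85.3% to 89.3% over the 5 groups.

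**Figure D3:**
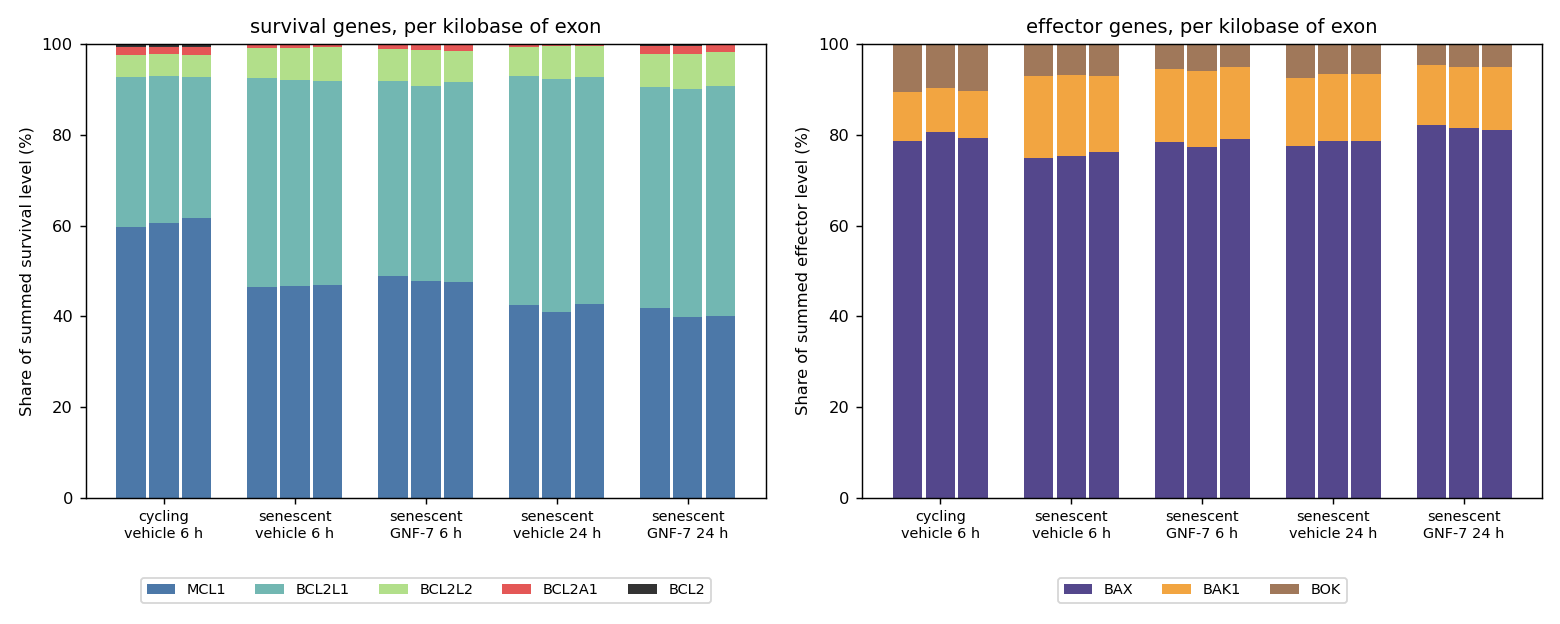
Share (%) of the summed CPM per kilobase of the 5 survival genes (left) and of the 3 effector genes (right), with 1 bar per library and 3 bars per group. MCL1 holds 60.6% of the survival sum in cycling cells and 40.6% with GNF-7 at 24 h, while BCL2L1 goes from 32.1% to 50.0%, and BAX holds 75.4% to 81.6% of the effector sum across groups.

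The partners of these proteins were read from 6 lists of 46 genes, of which 41 were tested. Among 8 BH3-only genes, whose products switch the family towards death, 3 were higher and 3 lower in senescent cells, near the 35.6% and 34.4% of all genes, with a median log2 fold change of -0.01. The smallest p belonged to BBC3, a p53 target, at 0.82 and to BID at -0.82. With GNF-7 at 6 h 4 of 8 rose and 1 fell (17.9% and 21.4% of all genes), with a median of 0.26, and the smallest p belonged to BCL2L11, the gene of BIM, at 1.18 and to PMAIP1, the gene of NOXA, which binds MCL1, at 0.73. At 24 h 5 rose and 2 fell (29.3% and 29.7% of all genes), with a median of 0.32, led by BID at -0.71 and HRK. BCL2L11 was at 0.28 at 24 h, and its responses differed by -0.90 (edgeR adjusted p = 3.95e-10).

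HRK, a BH3-only gene known from neurons, was almost absent in vehicle at 24 h, with 1, 2 and 0 counts in the 3 libraries, and held 80, 92 and 77 counts with GNF-7. That is at least 26.0-fold higher, with a floor of 3 counts per library for vehicle. At 6 h it held 4, 6 and 7 counts in vehicle and 33, 31 and 38 with GNF-7. The list median at 24 h is 0.32 also with HRK at its bound.

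The list of 7 genes that add or remove ubiquitin on MCL1 pools ligases and deubiquitinases, so its counts and medians give no direction for MCL1. Of these genes 2 were higher and 4 lower in senescent cells (35.6% and 34.4% of all genes). The deubiquitinase gene USP13 was at -1.16 and the ligase gene HUWE1 at -0.42. With GNF-7 1 was higher and 3 lower at each time, beside 17.9% and 21.4% of all genes at 6 h and 29.3% and 29.7% at 24 h. JOSD1, a deubiquitinase that stabilises MCL1, rose by 0.69 at 6 h and 0.59 at 24 h, while the ligase gene BTRC was at -0.24 at 6 h. USP9X, like JOSD1 a deubiquitinase gene, went the other way, at -0.46 at 24 h. The list medians were -0.23, -0.09 and -0.06 in those 3 comparisons.

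The 9 genes of the outer membrane and of mitochondrial shape were all lower in senescent cells, where 34.4% of all genes were called lower, with VDAC1, a channel of the outer membrane, at -0.71 and the fission gene DNM1L at -0.72. With GNF-7 6 of 9 fell at 6 h and 8 of 9 at 24 h, where 21.4% and 29.7% of all genes were called lower, and 0 were higher by edgeR, DESeq2 or limma voom, or at an unadjusted p under 0.05, apart from 1 at 24 h with a filter at 5 CPM. VDAC3 was at -0.35 and VDAC1 at -0.20 at 6 h, and VDAC1 at -0.56 and DNM1L at -0.50 at 24 h. The list medians were -0.39, -0.17 and -0.31. These values use TMM scaling, and the smallest falls called were near what scaling moves. MFN1 was at -0.13 in senescent cells and MFN2 at -0.10 with GNF-7 at 24 h. BAX, at -0.14 in senescent cells with TMM, was at -0.0063 with total counts. The all-gene median in senescent cells was 0.06 with TMM and 0.19 with total counts.

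The shares of all genes called higher and lower, for the counts that follow, were 35.6% and 34.4% in senescent cells, 17.9% and 21.4% with GNF-7 at 6 h, and 29.3% and 29.7% at 24 h. Of 10 apoptosome and caspase genes 2 were higher and 4 lower in senescent cells, 0 and 2 with GNF-7 at 6 h by edgeR (1 higher at an unadjusted p under 0.05, with DESeq2 and with limma voom), and 3 and 5 at 24 h. CYCS, the gene of cytochrome c, fell by 0.74, by 0.32 and by 0.63 in those comparisons, and HTRA2 fell by 0.42 at 24 h. Of 5 tested genes of the inhibitor of apoptosis (IAP) family, 2 were higher and 3 lower in senescent cells, 1 and 2 with GNF-7 at 6 h, and 1 and 4 at 24 h. BIRC5, which also serves mitosis, fell by 1.75 in senescent cells and, with GNF-7, by 0.21 at 6 h and by 1.19 at 24 h, and BIRC3 rose by 1.04 in senescent cells and fell by 1.42 with GNF-7 at 24 h. BIRC6 fell by 0.43 at 6 h and by 0.50 at 24 h. Of the 5 other BCL2-like genes BCL2L12 and BCL2L13 were tested, and BCL2L12 fell by 1.19 in senescent cells and by 0.40 with GNF-7 at 24 h, while BCL2L13 stood at 0.03, 0.13 and -0.12 in the 3 comparisons.

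**Figure D4:**
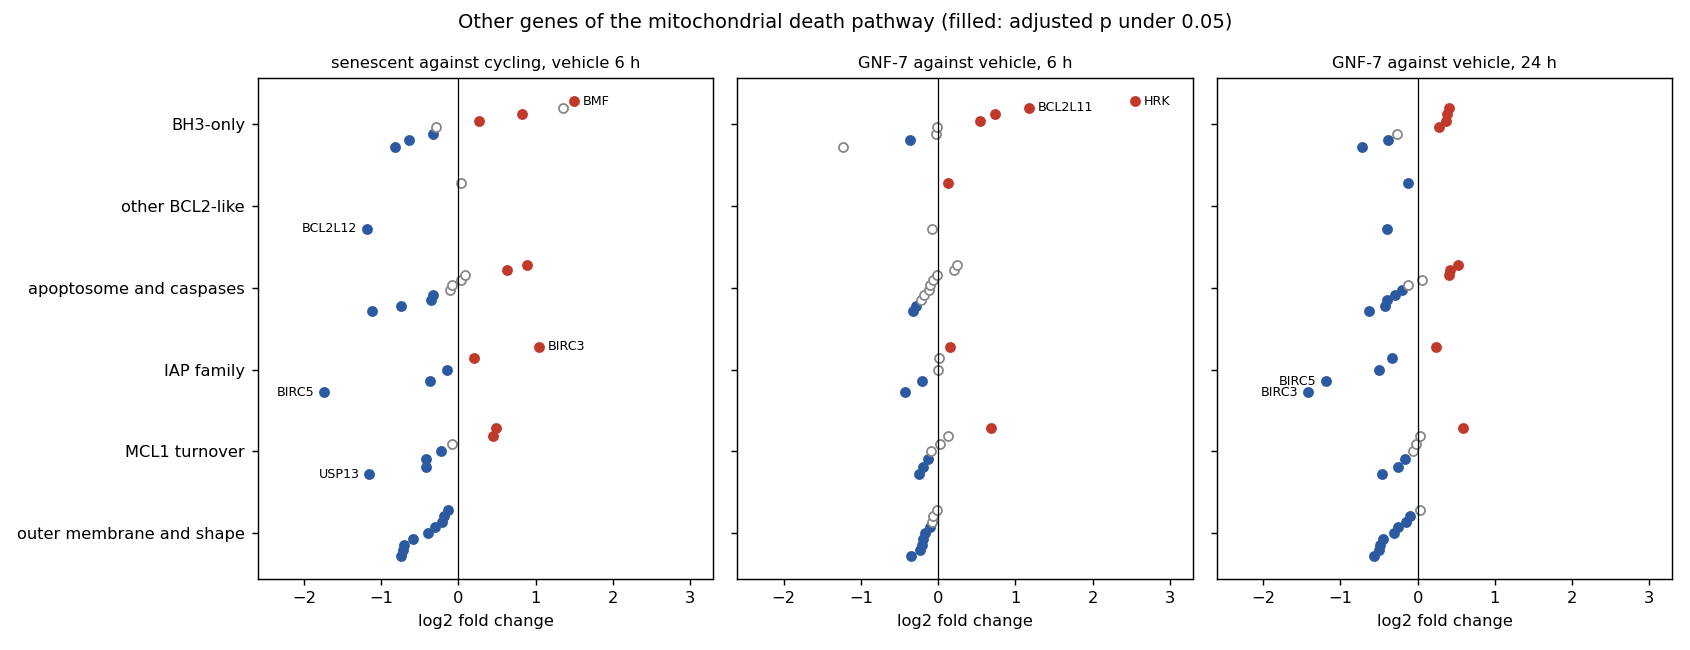
Log2 fold changes (x axis) of the tested genes of the 6 lists (rows, 1 point per gene) for senescence (senescent and cycling cells compared) and for GNF-7 at 6 h and 24 h. Filled points are called at an adjusted p under 0.05, and HRK is left out of the 24 h panel because its fold there is a lower bound. All 9 points of the outer membrane list lie below 0 and are filled in the first panel, and 8 of 9 in the third.

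The genes whose pattern over the 15 libraries was most like each member were found by the correlation of log2 CPM among genes of at least 5 CPM, as a description in which all points share groups and depth. MCL1 was most like XPO1 (r = 0.995) and PRMT3 (r = 0.994), and BCL2 most like HMGA1 (r = 0.98) and SPRED2 (r = 0.98). BCL2A1 was most like IQCB1 (r = 0.96) and ETV5 (r = 0.96). BCL2L1 was most like UBXN6 (r = 0.96) and TOMM7 (r = 0.96), and BCL2L2 most like PHF7 (r = 0.95) and KRT8P12 (r = 0.93), a pseudogene whose reads may be shared with KRT8. Among the effectors BAX was most like RPL13A (r = 0.93) and PER3 (r = 0.93), BAK1 most like ABCC10 (r = 0.97) and TERF2 itself (r = 0.97), and BOK most like AKT2 (r = 0.98) and PGP (r = 0.98).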

How the data were processed

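The authors deposited raw counts of reads per Ensembl gene for 15 libraries, without normalization. Libraries came from a stranded mRNA kit, per the labels' protocols. The submitters' processing notes name bcl2fastq 2.20.0.422, STAR 2.7.9a, featureCounts 1.5.1 and GRCh38. The annotation release and the use of strand are not given in the sources used here. A broken entry over 3 lines (ANK2, at most 0.00475% of a library's counts) was left out. Of 60670 genes, 99.55% had a symbol. Gene positions and lengths come from GENCODE 29 on GRCh38, promoters from RefSeq on GRCh38.p14 (entries for 6 of the 8 genes).

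edgeR's quasi-likelihood functions (version 4.0.16 in R 4.3.3) were run on the counts after filterByExpr and TMM, in a fit over 15 libraries in 5 groups, with Benjamini-Hochberg adjustment over 18563 genes and calls at 0.05. The SE is the log2 fold change divided by the square root of F. The biological coefficient of variation was 4.64%. The members and the lists were chosen with earlier results of these data known. All 8 members are named, the 2 genes of smallest p per list and comparison, the 2 genes most like each member, and TERF2, CDKN1A, MKI67 and DDIT3 as checks. LAPTM5 and the values of BCL2L11 and BIRC3 at 24 h and of HRK at 6 h were added after they were seen. So were those of MFN1 in senescence, of MFN2 at 24 h, and of BBC3 and PMAIP1 in vehicle time. A list gene that the rule names is not reported here.

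Library pairs within groups differed by more than sampling noise. Floors for counts of 0 are 3 counts at the 95% level and cover counting error only. In simulated counts of 17757 genes, every gene had the same spread and only 200 genes changed, 2-fold, in the GNF-7 group of 6 h. There edgeR recovered 181 of the 200 with 15 false calls. In the data spread varies by gene and 39.3% of all genes were called in that comparison. The simulation therefore checks that the fit runs and does not give its error rate here. Alternatives were RLE factors, total counts, scaling without mitochondrial genes, no filter, a filter at 5 CPM, DESeq2 (1.42.0), limma voom (3.58.1), fits without the other groups, a replicate block, other lengths and leaving out each library.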

Additional observations from a re-analysis of the deposited data

Results flagged for a closer look

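The response to GNF-7 differed between 24 h and 6 h, by a test of the difference itself, for BCL2A1 and MCL1 among the 8 genes. Beside them, 30.8% of all genes tested were called for this difference (12.8% above 0 and 18.0% below). For BCL2A1 the log2 fold change was 1.33 at 6 h and 3.11 at 24 h, a difference of 1.78 (edgeR adjusted p = 9.19e-04), and all 3 GNF-7 libraries stood above all 3 vehicle libraries at each time. Vehicle itself was lower at 24 h, with 15, 6 and 6 counts against 21, 21 and 17 at 6 h. For MCL1 the log2 fold change was 0.13 at 6 h and -0.02 at 24 h, a difference of -0.15 (edgeR adjusted p = 0.0164), with GNF-7 above vehicle in all libraries at 6 h and overlapping it at 24 h. The MCL1 call ended in edgeR without GNF-7 replicate 1 of 6 h (adjusted p = 0.0566) and without GNF-7 replicate 2 of 24 h (adjusted p = 0.0568). It also ended with a filter at 5 CPM (edgeR adjusted p = 0.0617).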

How the results depend on the processing

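The number of genes called stayed within 1.5 times in all 81 alternative counts, and of 643 alternative fold changes of the 8 genes 561 kept direction and call, 26 lost the call, 21 gained it and 35 changed sign. Values here are log2 fold changes. With total counts BAX was -0.0063 in senescence, 0.0907 at GNF-7 6 h and 0.101 at 24 h. At GNF-7 24 h BCL2 was 0.319, BCL2L2 0.144 and MCL1 0.004, with 4 members higher. Of all 18563 genes, 10879 were called there, 52.73% of them higher. For the interaction BCL2L1 was 0.0093, BCL2L2 0.0143, BAX 0.0102 and BAK1 0.0038. For vehicle time BCL2 was -0.09, BCL2L2 -0.0905, BOK -0.0533, MCL1 -0.200 and BAX 0.0154, with 1 member higher, 12.5% of all 5018 calls upward beside 49.93% with TMM, and an all-gene median of -0.10 beside 0.01. With the filter at 5 CPM, under which BCL2A1 has no value, BAX was 0.012 in senescence, 0.131 at GNF-7 6 h and 0.174 at 24 h, and BCL2L2 0.171 and 0.217. At 24 h BCL2 was 0.392, BCL2L1 0.116 and MCL1 0.0768, with 5 members higher. Of the 11234 genes tested with this filter, 8142 were called at 24 h, 51.02% of them higher. The interaction was 0.0364 for BAK1, 0.0424 for BAX, 0.0417 for BCL2L1, 0.0463 for BCL2L2 and -0.106 for MCL1, with edgeR calling 0 of 7 members (2 at an unadjusted p under 0.05), MCL1 was -0.0839 in vehicle time, and 3 members were lower in senescence. Among all 11234 genes, 5120 were called for the interaction and 9211 in senescence, 49.35% of the latter higher. Voom gave BAX 0.0735 at 24 h (2 members higher), BCL2A1 -1.10 in vehicle time (1 lower), and BCL2L2 0.001 for the interaction and 0.126 in senescence. It called 11015 of all 18563 genes at 24 h and 3351 in vehicle time, 50.18% and 50.64% of them higher. Without a filter BAX was 0.115 and BCL2A1 -1.05 in vehicle time (1 member higher, 1 lower), BCL2L1 -0.0084 at 24 h and BCL2L2 0.144 in senescence. That fit called 2970 of 37441 genes in vehicle time, 44.41% of them higher. BAX at GNF-7 6 h was 0.0873 with RLE factors and with DESeq2. MCL1 in vehicle time was -0.0906 with DESeq2 and -0.0932 with only the groups compared, where BCL2A1 was -1.05. For the lists of partner genes, 87 of 972 alternative counts of genes called moved, by more than 1.5 times or to or from 0. The causes were not tested.

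Leaving out single libraries gave, in senescence, BCL2L1 0.0935 to 0.120, BCL2L2 0.092 to 0.157 and 1 to 3 members higher. At GNF-7 6 h it gave BCL2L1 -0.0042 to 0.0627 and BAX 0.06 to 0.0993, and at 24 h BCL2 0.205 to 0.387, BCL2L1 -0.0141 to 0.0354, BCL2L2 0.0749 to 0.169 and 1 to 2 members higher. Interaction values were BCL2L1 -0.0415 to 0.0161, BCL2L2 -0.0411 to 0.0527, MCL1 -0.186 to -0.133, BAX -0.0233 to 0.0083 and BAK1 -0.0369 to 0.0271, with 0 to 1 members lower. Vehicle time values were BCL2 -0.0663 to 0.0801, BCL2L2 -0.0353 to 0.0585, BCL2A1 -1.54 to -0.824, BAK1 -0.227 to -0.163 and BOK -0.0013 to 0.0885, with 0 to 1 members lower. Of 18976 to 19196 genes tested, these fits called 12381 to 12522 in senescence and 10109 to 10504 at GNF-7 24 h. They called 5170 to 5750 for the interaction and 2535 to 2994 in vehicle time. With a replicate block 13032, 7482, 11031, 5921 and 3711 genes were called in senescence, GNF-7 6 h, GNF-7 24 h, interaction and vehicle time, and no call for a member changed. Over all pairs of groups, deviations of same-numbered libraries correlated at -0.037 to 0.058, and those of differently numbered libraries at -0.069 to 0.04. In every senescent group the mitochondrial share was lowest in replicate 1 and highest in replicate 2. Among the senescent groups, same-numbered pairs ran from -0.003 to 0.058 for replicates 1 and 2 and from -0.021 to 0.016 for replicate 3. Pairs of a replicate 1 with a replicate 2 ran from -0.069 to -0.002. Correlations this small over all genes cannot decide whether the numbers pair the libraries, and a shared batch by number was not tested. Gene counts of BCL2A1, at 6 to 95 a library, limit the precision of its folds.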

Other observations

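The cycling libraries are vehicle at 6 h. In senescent cells with GNF-7 at 24 h, BCL2, MCL1 and BOK lay below the cycling range. BCL2L1, BCL2L2, BAX and BAK1 lay above it, while BCL2A1 reached into it. Senescent vehicle at 24 h was on the same side of that range for BCL2, MCL1, BOK, BCL2L1, BCL2L2 and BAK1, so those positions are not particular to GNF-7. In that vehicle BAX (222 to 230 CPM) overlapped the cycling range (224 to 236), and BCL2A1 lay below it. These are ranges of 3 libraries each with TMM scaling, and the difference was not tested.

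In vehicle alone, the time from 6 h to 24 h raised 4 of 8 BH3-only genes and lowered 1 by edgeR, beside 4 and 0 by DESeq2 and 3 and 0 by limma voom. All 3 were run with scaling factors beyond the library total. Of those that rose, BBC3 and PMAIP1 were at 0.16 on the log2 scale. The all-gene median over this time was 0.01 with TMM and -0.10 with total counts, so rises this small depend on the scaling. BAD, whose product binds BCL-xL, rose by 0.45 and BMF rose by 0.57 on the log2 scale, and the gene called lower, HRK, held 4, 6 and 7 counts at 6 h and 1, 2 and 0 at 24 h. In the IAP list 4 of 5 fell, with BIRC3 at -0.94 and BIRC2 at -0.30. Of the apoptosome list 3 of 10 fell, with APAF1, the scaffold of the apoptosome, at -0.25 and DFFB at -0.40. Of the MCL1 ubiquitin list 2 of 7 fell, USP13 at -0.43 and USP9X at -0.16, and of the outer membrane list 2 of 9 fell, MFN2 at -0.14 and OPA1 at -0.11. BCL2L12 stood at -0.07 and BCL2L13 at 0.07. Beside these counts, 9.26% of all genes tested were called higher and 9.29% lower over the same time.

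The difference between the GNF-7 responses at 24 h and 6 h was called above 0 for 1 and below 0 for 4 of 8 BH3-only genes, with BCL2L11 at -0.90 and PMAIP1 at -0.35. Beside the counts for these lists, 12.8% of all genes tested were called above 0 and 18.0% below. The difference was below 0 for 3 of 5 IAP genes, with BIRC5 at -0.98 and BIRC3 at -1.43, and for 4 of 9 outer membrane genes, with VDAC1 at -0.37 and DNM1L at -0.33. In the apoptosome list 1 was above and 4 below 0, with CYCS at -0.31 and DFFB at 0.62, in the MCL1 ubiquitin list 1 of 7 was below 0 (USP9X at -0.37, with HUWE1 at -0.13), and BCL2L13 was at -0.25.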
